A study of Homo sapiens with 6 samples.

Results

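A set of 10 chemokine genes was examined in SKOV3 cells, an established human ovarian carcinoma line, with and without added TIPE2. The genes were CXCL1, CXCL2, CXCL3, CXCL5, CXCL6, CXCL8, CXCL10, CXCL16, CCL2 and CCL20, chosen by name from the 58735 genes in the deposited tables. RNA was sequenced from 3 libraries of cells given a lentivirus carrying human TIPE2 cDNA and from 3 libraries of cells given the empty vector. They are called TIPE2 1 to 3 and Vector 1 to 3. Cells were selected with puromycin, per the labels' protocols for the TIPE2 cells. The promoter that drives the cDNA, and whether the 3 libraries of a group came from separate transductions, are not given in the labels, so each p-value speaks of the spread among these libraries alone.

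TIPE2 is the protein made from TNFAIP8L2, best studied in leukocytes, where it restrains inflammatory responses. TNFAIP8L2 (ENSG00000163154) stood at 58.4, 47.2 and 48.8 FPKM in TIPE2 1, 2 and 3. FPKM is the number of sequenced fragments of a gene scaled by its length and by library depth. In Vector 2 the gene stood at 0.0476 FPKM, from 1 fragment, and Vector 1 and Vector 3 had no fragment. Each library's label therefore went with its TNFAIP8L2 level. Depth was similar, with 15983317 to 18583473 fragments falling on genes in each library. Markers of the ovarian carcinoma line were expressed, 7 of 7, with summed levels of 1040 to 1274 FPKM in TIPE2 and 1033 to 1198 FPKM in Vector. Summed leukocyte markers came to 0.0387 to 0.380 FPKM in TIPE2 and 0.0297 to 0.104 FPKM in Vector, and CD3E and CSF3R, 2 of the 7, were at 0 in all libraries. Endothelial markers summed to 0.813 to 1.07 and 0.522 to 0.688 FPKM, with CDH5 at 0, and fibroblast markers to 1.65 to 7.81 and 1.97 to 4.90 FPKM. PECAM1, an endothelial marker, stood at 0.939, 0.759 and 0.232 FPKM in TIPE2 and 0.204, 0.210 and 0.103 FPKM in Vector, with no overlap. It was not tested. KDR reached 0.576 FPKM, in TIPE2 3. The fibroblast markers COL1A1 and COL1A2 reached 3.36 FPKM each in TIPE2 and 1.54 and 2.91 FPKM in Vector. For KDR, COL1A1 and COL1A2 the groups overlapped.

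Chemokines are small secreted proteins that draw leukocytes along a gradient by binding G protein-coupled receptors. CXCL1, CXCL2, CXCL3, CXCL5, CXCL6 and CXCL8 carry the ELR motif (glutamate, leucine, arginine) before their CXC cysteines and act through CXCR2, with CXCR1 as a further receptor of CXCL6 and CXCL8. They attract neutrophils and promote the growth of blood vessels. In epithelial and carcinoma cells their genes are switched on by interleukin 1 and TNF through NF-kB, a family of transcription factors held in the cytoplasm by inhibitors such as IκBα, and their messages are short-lived because decay factors bind AU-rich elements in them. CXCL10 lacks the ELR motif, is induced by interferon and attracts activated T cells through CXCR3. CXCL16 is made as a membrane protein, binds CXCR6 and can be shed from the surface. CCL20 attracts cells bearing CCR6, and CCL2 attracts monocytes through CCR2.

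The 6 members with the ELR motif, called the ELR genes here, lie together on the long arm of chromosome 4. The name covers members of the set only, and no other gene of the stretch. In GENCODE 29 on GRCh38 the stretch from CXCL8 to CXCL2 runs from position 73740506 to 74099293, 358.787 kb, and holds 16 annotated genes, 9 of them protein-coding. In genome order the protein-coding genes are CXCL8, CXCL6, PF4V1, CXCL1, PF4, PPBP, CXCL5, CXCL3 and CXCL2. CXCL10 is on the same chromosome but starts 1921.82 kb beyond CXCL2, inside the span of ART3 on the opposite strand. CXCL16 (ENSG00000161921, chr17:4733526-4739922, minus strand), CCL2 (ENSG00000108691, chr17:34255218-34257203, plus strand) and CCL20 (ENSG00000115009, chr2:227805739-227817564, plus strand) lie elsewhere. The ELR genes are CXCL8 (ENSG00000169429, chr4:73740506-73743716), CXCL6 (ENSG00000124875, chr4:73836497-73849064) and CXCL1 (ENSG00000163739, chr4:73869393-73871242) on the plus strand. On the minus strand are CXCL5 (ENSG00000163735, chr4:73995642-73998779), CXCL3 (ENSG00000163734, chr4:74036589-74038807) and CXCL2 (ENSG00000081041, chr4:74097035-74099293). CXCL10 is ENSG00000169245, chr4:76021117-76023497, minus strand. FPKM values are for whole genes, over all their exons.

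RefSeq promoter sequences on GRCh38.p14 were at hand for 8 of the 10 genes. CXCL16 and CCL2 are named only. The stretches that follow are shown because the members differ most in level while sharing a short element, the kappa B core bound by NF-kB. Capitals mark the core, searched for on both strands as GGAATTTCC over the 250 bases before the start, and each stretch reads 5′ to 3′ on the gene's own strand.
CXCL1: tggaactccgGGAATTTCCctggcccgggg
CXCL2: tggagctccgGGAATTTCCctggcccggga
CXCL3: tggagctccgGGAATTTCCctggcccggcc
CXCL5: atgagttcagGGAATTTCCccagcatccca
CXCL6: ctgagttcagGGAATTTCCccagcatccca
CXCL8: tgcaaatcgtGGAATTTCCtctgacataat
CXCL10: aggagcagagGGAAATTCCgtaacttggag

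Their positions are chr4:73869305-73869334 (plus strand) for CXCL1, chr4:74099253-74099282 (minus) for CXCL2 and chr4:74038748-74038777 (minus) for CXCL3. Those of CXCL5, CXCL6 and CXCL8 are chr4:73998748-73998777 (minus), chr4:73836579-73836608 (plus) and chr4:73740468-73740497 (plus). That of CXCL10 is chr4:76023654-76023683 (minus). The core was found in 7 of the 8 promoters, in all 6 ELR genes and, on the opposite strand to the gene, in CXCL10, and was not found in the CCL20 window. Of 35116 promoter windows of the same length, 145 (0.413%) held these letters. In CXCL1 the core covers bases 78 to 70 before the start, and in CXCL2 and CXCL3 it lies within 1 base of that place. In CXCL8 it covers bases 91 to 83. All such distances are counted from the RefSeq start. For CXCL2, CXCL3, CXCL5, CXCL6 and CXCL8 that start lies inside the GENCODE gene span given above. The printed 30 bases of CXCL2, CXCL3, CXCL5 and CXCL6 therefore fall within those spans, and those of CXCL8 lie just before its span.

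The 30 bases fall into 3 kinds. CXCL1, CXCL2 and CXCL3 share nearly the same flanks on both sides of the core, CXCL5 and CXCL6 share another pair of flanks, and CXCL8 shares neither. Over the 250 upstream bases CXCL1 and CXCL3 were 81.4% identical and CXCL5 and CXCL6 85.3%. CXCL1 and CXCL2 were 68.0% identical, CXCL2 and CXCL3 73.3%, and every other pair of ELR genes 40.5% to 51.5%. A match is a description of letters and not a bound site. The core stands in the promoter of CXCL1, the member with the highest level, and in those of CXCL5 and CXCL6, which were close to 0 in every library.

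Longer upstream stretches are given for CXCL1 and CXCL8, the members with the highest levels. That of CXCL1 is chr4:73869193-73869392 (plus strand), the 200 bases before the start, and that of CXCL8 is chr4:73740419-73740505 (plus strand). Capitals mark the kappa B core and, in CXCL8, a match to the AP-1 element TGANTCA, searched for on both strands and overlapping no core.
CXCL1: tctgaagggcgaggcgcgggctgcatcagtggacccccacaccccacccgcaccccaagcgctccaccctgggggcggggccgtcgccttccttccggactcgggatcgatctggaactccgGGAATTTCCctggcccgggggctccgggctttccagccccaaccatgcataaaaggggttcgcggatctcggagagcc
CXCL8: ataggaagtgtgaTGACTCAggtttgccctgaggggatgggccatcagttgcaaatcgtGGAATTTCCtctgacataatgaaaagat

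The AP-1 letters were found in CXCL8 alone of the 8 promoters, at bases 137 to 131 before the start, and in 2308 (6.57%) of the 35116 windows. They say nothing of whether AP-1 acts on the other genes.

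Of the 6 ELR genes 4 were expressed, and CXCL1 was among the more abundant messages of the cell. Its mean of 193 FPKM over the 6 libraries placed it at percentile 98.7 of the 12538 genes tested, which are those with a mean of at least 1 FPKM. CXCL8 followed at 81.2 FPKM, percentile 96.0, CXCL2 at 52.9 FPKM, percentile 93.5, and CXCL3 at 7.0 FPKM, percentile 52.7. This order held in each of the 6 libraries. CXCL16 had a mean of 3.21 FPKM and CCL20 of 1.56 FPKM. CXCL16 was above CXCL3 in TIPE2 1 and TIPE2 2 and below it elsewhere, and CCL20 was above CXCL16 in Vector 1 alone. The order of these neighbours was thus not the same in every library, and levels of different genes were not tested against each other. With the longest coding transcript in place of the merged exon length, the mean of CXCL3 was 14.4 FPKM, and the order of the 6 genes was as before.

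**Figure D1:**
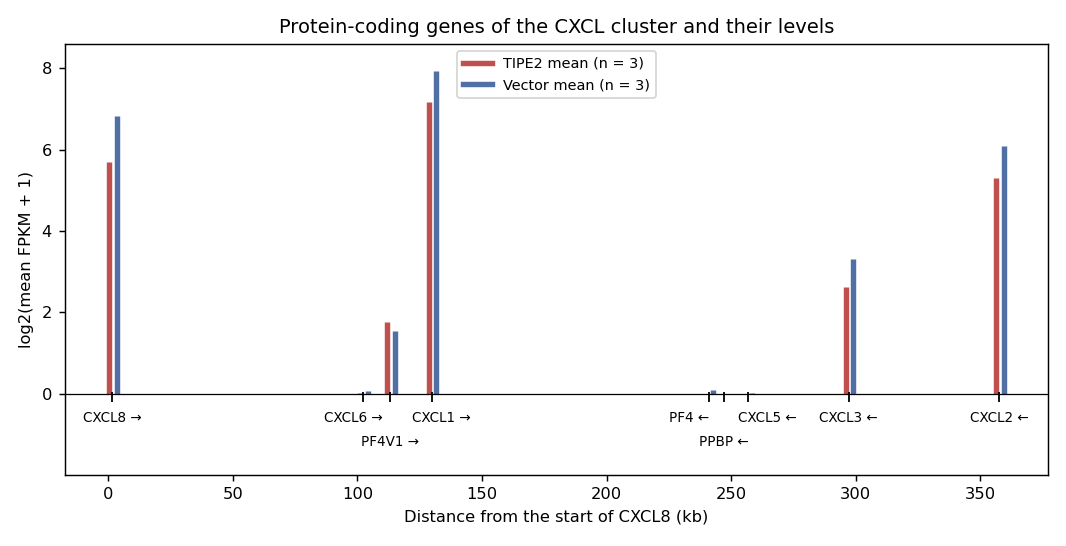
Level of the 9 protein-coding genes between CXCL8 and CXCL2, as log2 of the group mean in FPKM plus 1 on the vertical axis, against distance from the start of CXCL8 in kb; red bars are TIPE2 means and blue bars Vector means (n = 3 each), ticks mark the middle of each gene and arrows its strand. CXCL8, CXCL1, CXCL3 and CXCL2 stand high at both ends and in the middle of the stretch, with CXCL6, PF4, PPBP and CXCL5 near 0 between them. PF4V1 is above 0 but lower than CXCL3.

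Expressed and silent genes were interspersed along the cluster. CXCL6, PF4, PPBP and CXCL5 were at or near 0, while PF4V1, a platelet factor 4 variant gene next to CXCL1, stood at 1.7, 1.97 and 3.56 FPKM in TIPE2 and 2.18, 2.36 and 1.17 FPKM in Vector. The near-identical copies bear on how reads are shared: of all 50-base windows in their transcripts, 12.5% of those of CXCL2, 6.01% of CXCL3 and 4.81% of CXCL1 also occur in other genes, mainly in one another. The treatment of such reads is not given in the sources used here, so the level of CXCL3 beside its abundant relatives is the least certain. CXCL8 and CCL20 had no shared window.

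CXCL8, the main neutrophil attractant of human epithelium, stood at 25.1, 38.0 and 88.8 FPKM in TIPE2 1, 2 and 3 and at 134, 142 and 59.6 FPKM in Vector 1, 2 and 3. TIPE2 1 and 2 were the lowest libraries and Vector 1 and 2 the highest, but TIPE2 3 was above Vector 3, so the groups overlapped. The means were 50.6 ± 33.7 FPKM in TIPE2 and 112 ± 45.4 FPKM in Vector (SD, n = 3 each). On the log2(FPKM + 1) scale the difference, TIPE2 minus Vector, was -1.23 (SE 0.50; limma p = 0.0433, adjusted p = 0.825 over all tested genes; exact permutation p = 0.2). The permutation tests are two-sided, and 3 against 3 libraries cannot go below 0.1. In bulk RNA, fewer expressing cells and less RNA per cell cannot be told apart.

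CXCL1, first known as a melanoma growth factor and a neutrophil attractant, stood at 96.6, 130 and 200 FPKM in TIPE2 and 278, 305 and 149 FPKM in Vector. The pattern was that of CXCL8, with Vector 3 between TIPE2 2 and TIPE2 3. The means of 142 ± 52.8 and 244 ± 83.3 FPKM (SD, n = 3 each) gave a log2 difference of -0.77 (SE 0.34; limma p = 0.0539, adjusted p = 0.831; exact permutation p = 0.2). These levels rest on 2404 to 7043 fragments a library, so counting error is small beside the spread between libraries.

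CXCL2, a close relative of CXCL1 with the same receptor, stood at 21.2, 34.4 and 59.6 FPKM in TIPE2 and 96.6, 73.4 and 32.0 FPKM in Vector. Vector 3 lay below TIPE2 3, so the groups overlapped. By value Vector 3 was also below TIPE2 2, but that order was within counting error. The log2 difference was -0.78 (SE 0.48; limma adjusted p = 0.834; exact permutation p = 0.3). It was -0.42 without TIPE2 1, -0.45 without Vector 1 and -1.23 without Vector 3.

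CXCL3, the least abundant expressed member of the trio, stood at 3.12, 3.76 and 8.54 FPKM in TIPE2 and 10.6, 10.6 and 5.29 FPKM in Vector. Vector 1 and Vector 2 were the same to 3 digits, and TIPE2 3 was again above Vector 3. The log2 difference was -0.73 (SE 0.36; limma adjusted p = 0.834; exact permutation p = 0.2), and it was -1.10 without TIPE2 3 and -0.49 without TIPE2 1. Its levels rest on 133 to 421 fragments a library.

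CCL20 had the widest range of any tested member. It stood at 0.327, 0.359 and 0.978 FPKM in TIPE2 and 4.69, 2.46 and 0.537 FPKM in Vector, a spread of 14.3-fold between the lowest and the highest library. These values rest on 10, 10 and 26 fragments in TIPE2 and 118, 70 and 14 in Vector. Vector 1 and Vector 2 were high and the other 4 libraries low. The exact Poisson 95% intervals of TIPE2 3 (0.639 to 1.43 FPKM) and Vector 3 (0.294 to 0.902 FPKM) overlap, so the order of these libraries was not resolved at this depth. Such intervals cover counting error only. The log2 difference was -1.03 (SE 0.44; limma p = 0.0520, adjusted p = 0.827; exact permutation p = 0.2), and it was -0.60 without Vector 1 and -1.54 without Vector 3. At such low levels the added 1 FPKM shrinks the difference: it was -1.74 with a pseudocount of 0.1 and -1.91 with voom on the recovered fragments, and the Vector mean was 4.62 times the TIPE2 mean.

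CXCL16, the membrane-bound chemokine, stood at 3.22, 3.89 and 2.21 FPKM in TIPE2 and 3.87, 3.61 and 2.45 FPKM in Vector, with the third library of each group the lowest. The means of 3.11 ± 0.846 and 3.31 ± 0.757 FPKM (SD, n = 3 each) gave a log2 difference of -0.08 (SE 0.19; limma adjusted p = 0.930; exact permutation p = 0.7). Its direction turned without TIPE2 3 (0.091), without Vector 1 (0.02) and under array weights (0.16). Its annotated span shares 85 bases with MED11 on the opposite strand.

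**Figure D2:**
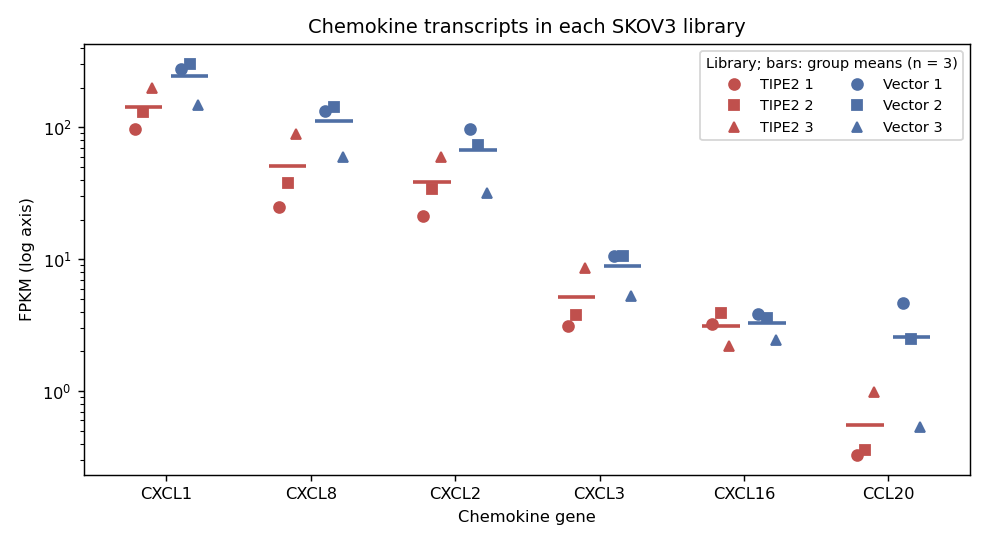
FPKM of the 6 tested chemokines in each library, on a log axis, with TIPE2 libraries in red and Vector libraries in blue and a bar at each group's mean (n = 3). TIPE2 3 lies above Vector 3 for CXCL1, CXCL2, CXCL3 and CXCL8, so these do not separate the groups; for CCL20 the order of these libraries is within counting error.

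The 4 remaining members were at or near 0 in both groups, below the filter, and were not tested. CXCL5 had 2 fragments in Vector 1 and none elsewhere. CXCL6 had 1 fragment in TIPE2 2, 1 in Vector 1 and 3 in Vector 2. CXCL10 had 1 fragment in TIPE2 2, 4 in Vector 1 and 1 in Vector 2. CCL2 had 1 fragment in Vector 2 and 1 in Vector 3. A library with no fragment allows a level of up to 0.0615 to 0.0723 FPKM for CXCL5, taken as 3 fragments, and the libraries differed in these 4 genes by no more than a few fragments. No change in them was detectable at this depth.

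Across the 10 genes, none passed the adjusted threshold of 0.05, where 3 of the 12538 tested genes (0.0239%) did. TNFAIP8L2, the added gene itself, was among these 3 (log2 difference 5.68, limma adjusted p = 4.9e-07). The count of genes that passed was 11 without TIPE2 3 and 1 without TIPE2 1, TIPE2 2, Vector 2 or Vector 3. All 6 tested members had a lower mean log2 level in TIPE2, as did 51.1% of all tested genes. At an unadjusted p under 0.05, CXCL8 was lower, 1 of 6, against 2.97% of all tested genes. By the values as deposited, every TIPE2 library lay below every Vector library for 0 of the 6, against 5.31% of all tested genes. The median log2 difference of the 6 was -0.77, beside -0.0056 over all tested genes. The 4 members that failed the filter have no place in these counts.

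**Figure D3:**
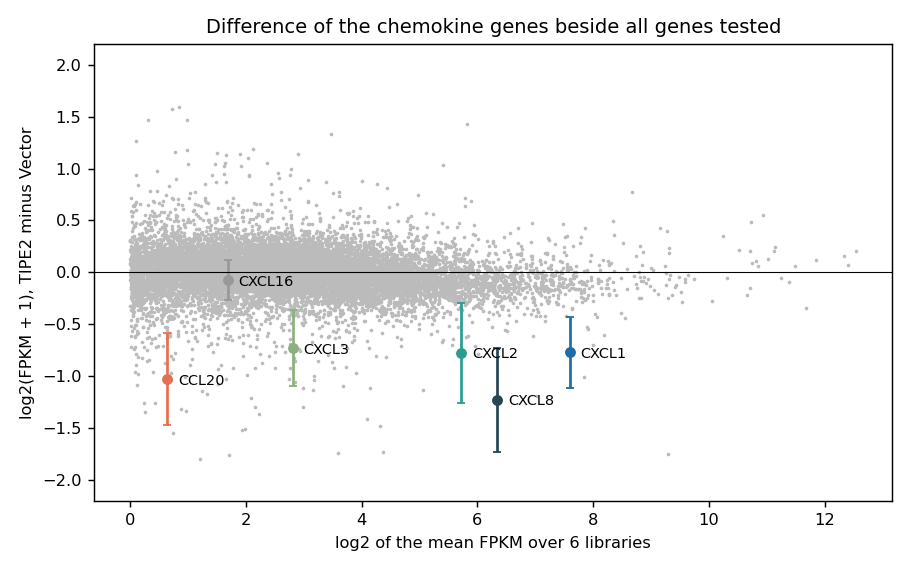
Log2 difference, TIPE2 minus Vector on the log2(FPKM + 1) scale, against the log2 of the mean FPKM over 6 libraries, for all 12538 tested genes in grey with the 6 tested chemokines in colour and bars of 1 SE either side; 2 genes lie outside the vertical axis. CXCL1, CXCL2, CXCL3, CXCL8 and CCL20 lie at the lower edge of the cloud at -0.73 to -1.23, and CXCL16 lies near 0.

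The expressed ELR genes had nearly the same order of libraries. CXCL1 and CXCL8 ranked them identically, from low to high TIPE2 1, TIPE2 2, Vector 3, TIPE2 3, Vector 1 and Vector 2, with no overlap of the libraries' counting intervals. The values of CXCL3 had this order too, but the intervals of Vector 1 and Vector 2, and of TIPE2 1 and TIPE2 2, overlapped. CXCL2 had Vector 1 above Vector 2, and its order of Vector 3 and TIPE2 2 was within counting error. Averaged over these 4 genes, the level on the log2(FPKM + 1) scale was 4.46, 4.93 and 5.83 in TIPE2 and 6.34, 6.29 and 5.21 in Vector. Within TIPE2 it spanned 1.37 and within Vector 1.12, both wider than the difference of -0.88 between the group means (SD 0.70 and 0.64, n = 3 each). That difference was -0.57 without TIPE2 1, -1.25 without TIPE2 3 and -1.24 without Vector 3.

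Over the 6 libraries, Pearson's r for the 6 pairs of these genes lay between 0.952 and 0.990, and Spearman's rho between 0.886 and 1. Exact permutation p-values for r were 0.00139 to 0.0111, adjusted over the 6 pairs 0.00278 to 0.0111, and those for rho 0.00278 to 0.0333, adjusted 0.00556 to 0.0333. CXCL3 with CXCL8 was the closest pair at 0.990 and CXCL2 with CXCL8 the least close at 0.952. With the 2 libraries farthest from the median left out, r was 0.908 to 0.980. Taken as deviations from each group's mean, which removes the difference between TIPE2 and Vector, r was 0.945 to 0.991. The genes thus rose and fell together among libraries of the same group. They share libraries and, for CXCL1, CXCL2 and CXCL3, some sequence, so the pairs are not independent of one another.

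**Figure D4:**
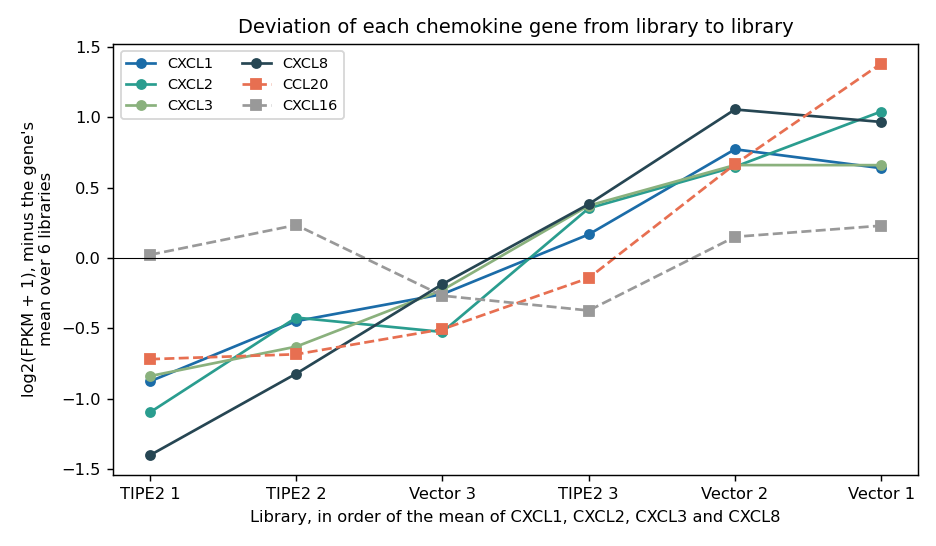
Log2(FPKM + 1) of each tested chemokine in each library, as the difference from its own mean over the 6 libraries, with libraries ordered by the mean of CXCL1, CXCL2, CXCL3 and CXCL8. The 4 cluster genes and CCL20 climb from TIPE2 1 to the Vector 1 and Vector 2 libraries, while CXCL16 stays between -0.37 and 0.23.

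The genes did not move by the same factor. From the lowest to the highest library CXCL1 changed 3.16-fold, CXCL3 3.41-fold, CXCL2 4.56-fold and CXCL8 5.66-fold. The ratio of CXCL8 to CXCL1 in FPKM was 0.260, 0.292 and 0.444 in TIPE2 and 0.481, 0.466 and 0.400 in Vector, lowest where the cluster was lowest. CXCL8 made up 16.8% of the summed FPKM of the 10 genes in TIPE2 1 and 26.5% in Vector 2, and CXCL1 64.6% and 56.7%. That sum was 150, 211 and 360 FPKM in TIPE2 and 527, 537 and 249 FPKM in Vector. CXCL3 to CXCL1 stayed between 0.0289 and 0.0427.

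CCL20, on another chromosome, ranked the libraries as the mean of the 4 cluster genes did (rho = 1, r = 0.898 over 6 libraries, given as a description). By counting intervals, Vector 1 and Vector 2 stood above the rest. Among TIPE2 1, TIPE2 2, Vector 3 and TIPE2 3 the intervals overlapped for every pair but TIPE2 1 with TIPE2 3. Most of the order of these libraries was therefore not resolved. The r of CCL20 was 0.827 for deviations from the group means and 0.963 with the 2 farthest libraries left out. CXCL16 had r = 0.108 and rho = 0.0857 with the same mean, and PF4V1, inside the cluster, r = 0.52.

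Of 12534 tested genes outside the averaged 4, those most like the cluster mean over the 6 libraries were CD83 (r = 0.988), BMP2 (0.985), SMOX (0.985), GALNT14 (0.984) and LINC00973 (0.980). CD83, a surface protein of activated dendritic cells, stood at 1.64, 2.18 and 2.65 FPKM in TIPE2 and 3.30, 3.26 and 2.21 FPKM in Vector. SMOX, spermine oxidase, was the most abundant of the 5, at 9.79, 11.3 and 15.2 FPKM in TIPE2 and 17.9, 18.6 and 13.8 FPKM in Vector. Both had Vector 3 below TIPE2 3, as the chemokines did. Those most opposed were DENND1B (-0.984), LINC02522 (-0.984) and CYB5RL (-0.981), and the level of LINC02522 was 68.9 FPKM in TIPE2 1 against 39.8 FPKM in Vector 1. In all, 141 of the 12534 genes (1.12%) had r of at least 0.9, and the median was 0.03.

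Related genes were taken from lists of the pathway, and none of their members passed the test. Of all 12538 tested genes, 51.1% had a negative log2 difference. Every TIPE2 library lay below every Vector library for 666 of the 12538 (5.31%), and above every Vector library for 775. Of the 34 other chemokines, 22 were at 0 in all libraries and 3 were tested. CCL26 (eotaxin-3, an eosinophil attractant) had a log2 difference of -0.71 (SE 0.34; limma adjusted p = 0.834), CCL28, a mucosal chemokine, 0.28 and PF4V1 0.22. CXCL14, under the filter, had 0.0568 to 0.474 FPKM. The receptors were nearly silent, with 0 of 22 tested and 9 at 0 throughout. CXCR1 had no fragment and CXCR2 a single one, in TIPE2 2. CXCR4, the CXCL12 receptor, was the highest at 0.743 to 1.08 FPKM, and CCR10, ACKR3 and ACKR4 were lower.

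Of 18 NF-kB subunits and regulators, 16 were tested and none passed, with a median log2 difference of -0.21. The difference was negative for 15 and positive for 1, where 51.1% of all tested genes were negative. Among their most abundant members were CEBPD and CEBPB, bZIP factors of inflammatory genes, and NFKBIA, which encodes IκBα. NFKBIA stood at 37.1, 52.6 and 58.4 FPKM in TIPE2 and 86.2, 70.1 and 44.9 FPKM in Vector (log2 difference -0.41, SE 0.26; limma adjusted p = 0.837). It had Vector 3 below TIPE2 2 and TIPE2 3, as CXCL2 had by value, and its r with the cluster mean was 0.93. CEBPB and CEBPD had log2 differences of -0.011 and -0.20 and r of 0.45 and 0.45. In all, 5 of the 16 had r of at least 0.9, against 141 of the 12534 genes (1.12%) outside the averaged 4.

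RELB, NFKB2 and TNFAIP3 were chosen after their values were seen, because their groups did not overlap. Every TIPE2 library lay below every Vector library for 4 of the 16 tested genes of the list, against 5.31% of all tested genes. RELB and NFKB2 encode the subunits of the non-canonical NF-kB dimer and TNFAIP3 the inhibitor A20, and their log2 differences were -1.0 (SE 0.28), -0.86 (SE 0.23) and -1.13 (SE 0.31), each with a limma adjusted p of 0.662. RELA, the canonical subunit, did not overlap either but differed by only -0.15. TNFAIP3 stood at 3.83, 4.70 and 6.61 FPKM in TIPE2 and 12.7, 18.7 and 7.15 FPKM in Vector. Vector 3 was the lowest Vector library, as for the chemokines, but stayed above TIPE2 3.

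**Figure D5:**
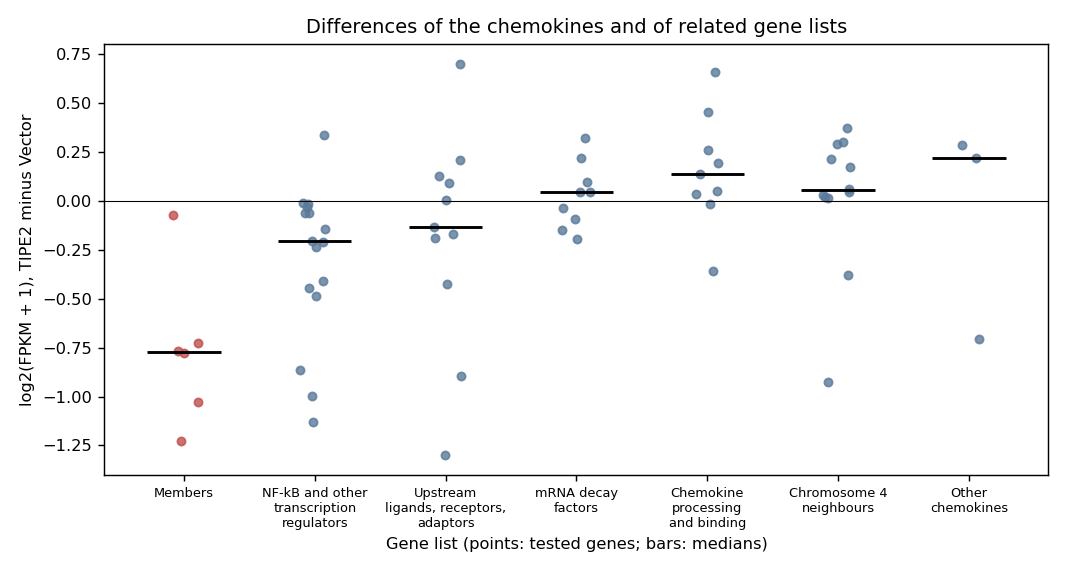
Log2 difference, TIPE2 minus Vector on the log2(FPKM + 1) scale, of every tested gene in each list, with a bar at the list's median; members are in red. The 6 tested members have a median of -0.77, the NF-kB list of -0.21, and the other lists between -0.14 and 0.22.

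Of 16 upstream ligands, receptors and adaptors, 11 were tested, 6 negative and 5 positive, with a median of -0.14. IL1A, which encodes interleukin 1 alpha, stood at 2.75, 2.61 and 8.16 FPKM in TIPE2 and 11.0, 12.5 and 10.3 FPKM in Vector (log2 difference -1.30, SE 0.34; limma adjusted p = 0.658). The groups did not overlap. The kinase gene IRAK1 (-0.14), the TNF receptor gene TNFRSF1A (0.13) and IL17RA (-0.19) differed little beside their spread. IL1B and IL1R1 were chosen after their values were seen. IL1B, at 0.404, 0.702 and 2.52 FPKM in TIPE2 and 2.80, 4.0 and 1.84 FPKM in Vector, had r = 0.95 with the cluster mean. IL1R1, the interleukin 1 receptor, had a log2 difference of 0.70 (SE 0.15; limma adjusted p = 0.383) and did not overlap between the groups.

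All 9 genes listed for the control of mRNA decay, ELAVL1 among them, were tested, 4 negative and 5 positive, with a median of 0.04. ZFP36, whose product binds AU-rich elements of cytokine messages, stood at 75.8, 74.9 and 64.5 FPKM in TIPE2 and 60.6, 50.6 and 60.5 FPKM in Vector, with no overlap (log2 difference 0.32, SE 0.14; limma adjusted p = 0.827). Its r with the cluster mean was -0.83. ZFP36L1, ZFP36L2 and KHSRP, of the same role, differed by 0.04, 0.04 and -0.15.

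Of 10 genes for processing or holding chemokines 9 were tested, 2 negative and 7 positive, with a median of 0.14. MMP1, a collagenase, had the highest level, 502 ± 248 FPKM in TIPE2 and 397 ± 172 FPKM in Vector (SD, n = 3 each), a log2 difference of 0.26. SDC4, a heparan sulfate proteoglycan, was at 80.8 ± 6.46 and 104 ± 11.0 FPKM (SD, n = 3 each), with a log2 difference of -0.36, no overlap and r = 0.93 with the cluster mean. SDC1 and GPC1, proteoglycans too, differed by 0.05 and 0.03.

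Of 20 genes around the cluster that encode no chemokine, 12 were tested, 2 negative and 10 positive. Their median log2 difference was 0.05, and r lay between -0.73 and 0.88. The list reaches at least as far as ART3, which overlaps CXCL10 at 1921.82 kb beyond CXCL2, so not all of its genes are close to the cluster. The most abundant, G3BP2, NUP54, USO1 and SCARB2, had r of -0.54, -0.32, -0.34 and -0.61. EREG and AREG, neighbours that encode ligands of the EGF receptor, were the 2 negative ones, named after their values were seen. Their log2 differences were -0.38 and -0.93, and their r was 0.88 and 0.65.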

How the data were processed

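RNA sequencing of 6 SKOV3 libraries, 3 per group by their titles, was deposited by the authors as 1 table per library with values in FPKM for 58735 Ensembl genes, per the file headers. CASAVA 1.7, Bowtie and mm8, a mouse build, are listed in the submitters' processing notes. All identifiers are human and matched GENCODE 29 on GRCh38, used here for names and positions. Which build reads were aligned to could not be settled. Neither the counting tool nor its strand setting is stated: not given in the sources used here. FPKM times exon length and a denominator per library gave whole fragments for 100% of values above 0, within 0.01, and these fragments give depth and counting error.

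From the deposited FPKM, limma 3.58.1 in R 4.3.3 (trend, robust) was fitted to log2(FPKM + 1) for the 12538 genes whose mean reached 1 FPKM, with no covariate, and p was Benjamini-Hochberg adjusted over them. This scale understates changes of low genes. Permutation tests and correlations used Python 3.11.15 with scipy 1.17.1. The limma fit was tested on simulated data. Alternatives were a replicate block, each library left out, quantile normalization, other filters, a pseudocount of 0.1, array weights, limma with default empirical Bayes settings, voom on recovered fragments, and, added after seeing the data, another gene length and further settings for the cluster.

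Members and lists were chosen with earlier results of these data known. All members are named, then the 5 genes most like and the 3 most opposed to the cluster mean, and up to 4 genes of highest mean FPKM in each list plus any that passed. The values of 1 list gene are not reported here.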

Additional observations from a re-analysis of the deposited data

How the results depend on the processing

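No member passed the adjusted threshold under any of the 14 other settings. The lowest adjusted p was 0.0920, for CXCL3 and CXCL8 under limma array weights. Of 60 member differences recomputed under settings that can move them, 57 kept their direction, and the 3 that reversed were of CXCL16: 0.091 without TIPE2 3, 0.02 without Vector 1 and 0.16 under array weights. The cause was not tested. The number of genes that differed was 3, with TNFAIP8L2 among them. It was 1 with the replicate block, with no filter and with a minimum mean of 5 FPKM. Under array weights it was 400 (208 higher, 192 lower), and with 1 library left out it was 1 to 11. Same-numbered libraries had correlations of their deviations from the group means of -0.23, 0.15 and 0.19, and differently numbered ones of -0.35 to 0.33. Such deviations sum to 0 within each group, so these values cannot show whether same-numbered libraries were handled together. A block cannot alter a difference between groups that share all 3 numbers, and it moved only the p-values. The median r among the 4 cluster genes, 0.971, was 0.952 after quantile normalization and 0.950 to 0.984 with 1 library left out. The cluster difference of -0.88 ranged from -1.25 to -0.57 with 1 library left out and was -0.59 over all 6 ELR genes. The CCL20 difference of -1.03 was -1.74 with a pseudocount of 0.1 and -1.91 with voom, and depth limits it to 10 fragments in the lowest library.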
